A study of Mus musculus with 9 samples.

Results

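The trophoblast, the outer lineage that forms the placenta, is built by a small set of transcription factors, and 10 of their genes were followed here in mouse embryonic stem (ES) cells: Tead4, Cdx2, Elf5, Tfap2c, Tfap2a, Gata3, Gata2, Ets2, Hand1 and Dlx3. In the embryo TEAD4, the DNA-binding partner of the Hippo pathway coactivators YAP1 and WWTR1, acts upstream of CDX2 and GATA3 in the trophectoderm. ELF5, TFAP2C and ETS2 then maintain trophoblast stem cells, and HAND1, GATA2 and DLX3 act in later trophoblast and placental cells. ES cells come from the inner cell mass and normally keep this programme silent. ESRRB, added in part of these cells, belongs to the pluripotency network of ES cells and is also required by trophoblast stem cells. The members are 155 of the 157497 counted regions, all of those lying in or within 50 kb of the RefSeq span of one of the 10 genes and having it as their nearest protein-coding gene, and all 155 could be tested.

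Chromatin accessibility was measured by ATAC-seq, in which a transposase inserts sequencing adapters into open DNA. The 3 libraries of NanogKO:Esrrb:Nanog came from cells labelled with both Esrrb and Nanog added to a Nanog knockout, the 3 of NanogKO:Esrrb from knockout cells with Esrrb added, and the 3 of NanogKO from the knockout alone. All cells were cultured in 10% serum plus the cytokine leukaemia inhibitory factor at 1000 U/ml, which keeps ES cells undifferentiated, and flow sorted as positive for PECAM and negative for PDGFRA. The sample titles name the groups 44JN, 44J and 44C6, while the cell line label is N{delta}:cE:iN for both NanogKO:Esrrb:Nanog and NanogKO:Esrrb and N{delta} for NanogKO. By the titles each group has a name of its own, so the added factors and the line cannot be told apart in any of the comparisons. They do not say how Esrrb or Nanog was expressed, whether a line is a single clone, or whether replicates are separate cultures, so the p-values rest on a spread between libraries that could be technical.

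Library totals ran between 35.5e6 and 58.5e6 counts. The Nanog region at chr6:122713174-122713525 held 4.25, 4.49 and 6.17 CPM (counts per 1000000 of the scaled library total) in NanogKO:Esrrb:Nanog, 3.02, 3.84 and 4.02 CPM in NanogKO:Esrrb, against 0.902, 0.937 and 1.56 CPM in NanogKO. The files do not show which part of Nanog was deleted, so this level does not check the labels. The counted regions were exactly the merged intervals of the 3 deposited peak lists. The peaks of the NanogKO:Esrrb:Nanog list all carry names of NanogKO:Esrrb replicate 3, so a region open in NanogKO:Esrrb:Nanog alone need not have been counted. Regions of 5 ES cell genes (Pou5f1, Sox2, Zfp42, Utf1 and Tdgf1), the check of the labelled cell type, summed to between 752 and 814 CPM in NanogKO:Esrrb:Nanog, between 685 and 746 CPM in NanogKO:Esrrb, with NanogKO between 516 and 572 CPM, over 75 regions.

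The trophoblast genes had open regions in every group. Of the 155 regions, 94 overlapped a peak in all 3 lists and 17 had one in the NanogKO list only. Another 29 had no peak in the NanogKO list. A region without a peak in every list was counted through the groups that had one, so part of its difference can come from that selection. Tfap2c and Gata3 had 22 regions each, Hand1 20, Tead4 19, Tfap2a and Ets2 18 each, Gata2 12, Dlx3 11, Elf5 7 and Cdx2 6. The regions' counts per library ran between 0 and 3105, and 60 regions lay in a gene span, 40 outside it within 10 kb and 55 at 10 to 50 kb. The table of genes gives spans without exons, so exons, introns and untranslated parts were not told apart.

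The promoter sequences are shown because the regions at these gene starts were not called between NanogKO:Esrrb:Nanog and NanogKO while many distant ones were. RefSeq promoter windows (assembly GRCm38.p6, the assembly of mm10) were found for 6 of the 10 genes, and the 250 bases before the start are printed where the window holds a searched motif or its region changed. Capitals mark the AP-2 motif GCCNNNGGC, the octamer ATTTGCAT or the TEAD motif GGAATG, each searched on both strands, so that the reverse complements ATGCAAAT and CATTCC also stand in capitals.
Gata3 chr2:9878601-9878850, minus strand: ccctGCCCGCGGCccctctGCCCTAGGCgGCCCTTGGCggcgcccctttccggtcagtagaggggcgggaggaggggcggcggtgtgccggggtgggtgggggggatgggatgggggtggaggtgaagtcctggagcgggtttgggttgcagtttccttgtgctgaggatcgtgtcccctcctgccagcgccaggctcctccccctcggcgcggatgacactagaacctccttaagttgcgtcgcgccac
Cdx2 chr5:147307250-147307499, minus strand: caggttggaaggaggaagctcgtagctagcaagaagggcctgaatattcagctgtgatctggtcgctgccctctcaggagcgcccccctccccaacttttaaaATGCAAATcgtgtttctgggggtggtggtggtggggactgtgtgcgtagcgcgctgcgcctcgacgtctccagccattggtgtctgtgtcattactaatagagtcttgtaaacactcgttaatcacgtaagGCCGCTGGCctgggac
Gata2 chr6:88198414-88198663, plus strand: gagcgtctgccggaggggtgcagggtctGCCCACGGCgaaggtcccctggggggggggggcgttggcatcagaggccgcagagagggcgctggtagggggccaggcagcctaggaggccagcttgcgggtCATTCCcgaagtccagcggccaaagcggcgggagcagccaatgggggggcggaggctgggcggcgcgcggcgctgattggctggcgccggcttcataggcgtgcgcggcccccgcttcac
Elf5 chr2:103411848-103412097, plus strand: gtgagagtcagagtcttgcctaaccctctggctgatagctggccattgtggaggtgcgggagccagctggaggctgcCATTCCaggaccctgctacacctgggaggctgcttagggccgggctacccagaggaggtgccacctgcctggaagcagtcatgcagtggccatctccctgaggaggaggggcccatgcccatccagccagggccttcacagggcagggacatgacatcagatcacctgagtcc
Tfap2a chr13:40733796-40734045, minus strand: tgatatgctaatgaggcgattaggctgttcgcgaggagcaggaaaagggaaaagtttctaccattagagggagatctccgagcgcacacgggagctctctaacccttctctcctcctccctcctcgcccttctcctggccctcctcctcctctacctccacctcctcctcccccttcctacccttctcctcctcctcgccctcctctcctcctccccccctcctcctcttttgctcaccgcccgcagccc

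The Gata3 stretch held 3 AP-2 matches, at 246, 231 and 221 bases before the start, and Cdx2 held 1 at 16 bases and an octamer at 147 bases. The Gata2 window had an AP-2 match at 222 bases and a TEAD match at 120 bases, and the Elf5 window a TEAD match at 173 bases. Among all 32817 promoter windows of the same length, 13.7% held the AP-2 motif, 12.6% the TEAD motif and 1.6% the octamer. The ESRRB motif AAGGTCA, in 4.08% of all windows, and the GATA motif AGATAA, in 9.99%, were found in none of the windows of these 6 genes. The Tfap2a stretch is shown for its region, which changed, and held no searched motif. No 2 of these matches overlapped. A match is a run of letters, not a bound site.

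Accessibility over these regions changed in both directions, and against NanogKO the shares called higher were close to those of all regions, while the share called lower was smaller in NanogKO:Esrrb:Nanog. A region was called at an adjusted p under 0.05 in edgeR's quasi-likelihood test, with p-values adjusted over all 157439 tested regions. Between NanogKO:Esrrb and NanogKO, 29 of 155 regions (18.7%) were higher and 26 (16.8%) lower, where 37.0% of all regions were called, 20.0% higher and 17.0% lower. Between NanogKO:Esrrb:Nanog and NanogKO, 40 (25.8%) were higher and 25 (16.1%) lower, against 24.9% and 24.4% of all regions (49.3% in all). The median log2 fold change over the members was -0.02 and 0.06 in these comparisons, against -0.01 over all regions in each. In these bulk samples a change in a fraction of the cells and a smaller change in every cell cannot be told apart.

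Between NanogKO:Esrrb:Nanog and NanogKO:Esrrb, 32 regions (20.6%) were higher and 5 (3.23%) lower, against 12.6% and 12.0% of all regions (24.6% in all). The median log2 fold change was 0.11 over the members and -0.01 over all regions. This split depended on the scaling. With library totals alone, which moved the median of all regions to -0.11, 19 members were higher and 11 lower, so that 63.3% of member calls were higher, where it had been 86.5%, and the share over all regions was 33.5%, where it had been 51.1%. The same scaling gave 34 higher and 32 lower members between NanogKO:Esrrb:Nanog and NanogKO, with the median of all regions at -0.10. There 51.5% of member calls were higher, where it had been 61.5%, and the share over all regions was 42.2%, where it had been 50.5%. Without NanogKO:Esrrb replicate 1, NanogKO:Esrrb replicate 3 or NanogKO:Esrrb:Nanog replicate 2, the higher count was 19, 21 and 18. The lower count was 3 without NanogKO:Esrrb replicate 3 and 12 without NanogKO:Esrrb:Nanog replicate 3.

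A larger share was called at 10 to 50 kb from the genes than in their spans, among the members and among all regions. Of the 55 members at 10 to 50 kb, 34.5% were higher and 18.2% lower in NanogKO:Esrrb against NanogKO, where 24.6% and 16.9% of all 24484 regions at that distance were. In NanogKO:Esrrb:Nanog against NanogKO these shares were 41.8% and 18.2% of the members, and 26.2% and 27.5% of all regions at that distance. In NanogKO:Esrrb:Nanog against NanogKO:Esrrb they were 30.9% and 3.64% of the members, and 10.9% and 16.2% of all such regions. Of the 60 members in a gene span, 10.0% were higher and 18.3% lower in NanogKO:Esrrb against NanogKO, where 18.1% and 16.4% of all regions in a gene span were. In NanogKO:Esrrb:Nanog against NanogKO these shares were 18.3% and 15.0% of the members, and 25.2% and 21.3% of all such regions. In NanogKO:Esrrb:Nanog against NanogKO:Esrrb they were 20.0% and 0.0% of the members, and 13.9% and 9.35% of all such regions.

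**Figure D1:**
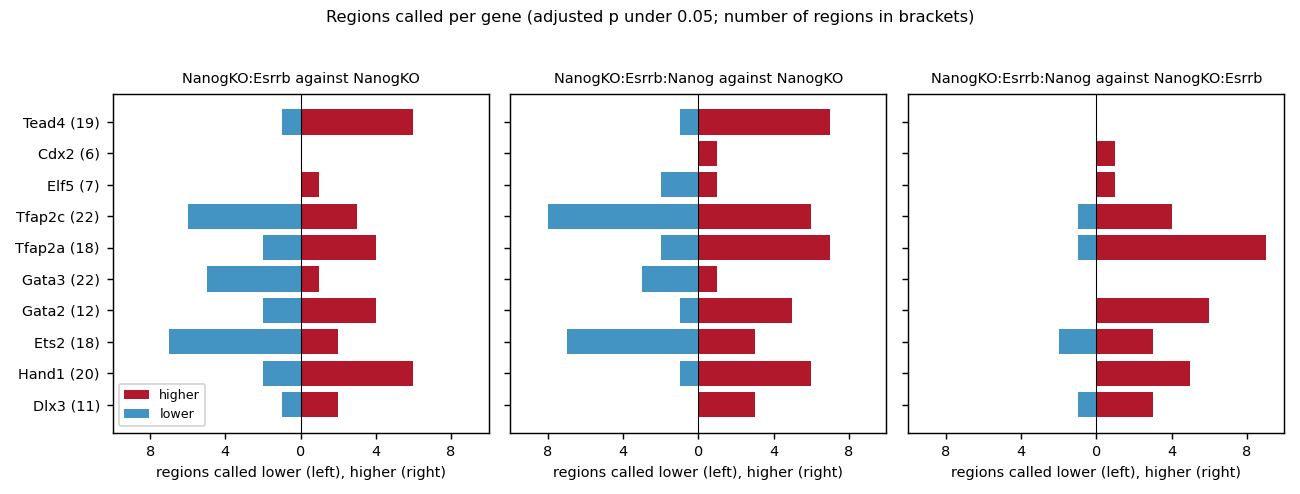
Number of regions called higher (red, right) and lower (blue, left) for each gene in each of the 3 comparisons, with the number of regions of each gene in brackets. Tfap2a has 9 higher regions in NanogKO:Esrrb:Nanog against NanogKO:Esrrb, and Ets2 has 7 lower regions in each comparison with NanogKO.

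The direction of the called regions differed between the genes. Across the comparisons, 15 regions were called higher in all 3, and they lay at Hand1 (4), Gata2 (3), Tfap2a (3), Tfap2c (2), Elf5, Dlx3 and Ets2. A further 12 were higher in both comparisons with NanogKO and not called between NanogKO:Esrrb:Nanog and NanogKO:Esrrb, 6 of them at Tead4. In the other direction 15 were lower in both comparisons with NanogKO and not called in the third, 5 of them at Tfap2c and 4 at Ets2. Another 76 of the 155 were called in no comparison. The comparisons share libraries, so these patterns are not independent. They were not counted over all regions, so whether the members differ from all regions in them was not tested. For each gene the text gives the promoter region, the region of smallest p and the largest change at or above the median abundance, and regions introduced as "further" were chosen after their values were seen.

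**Figure D2:**
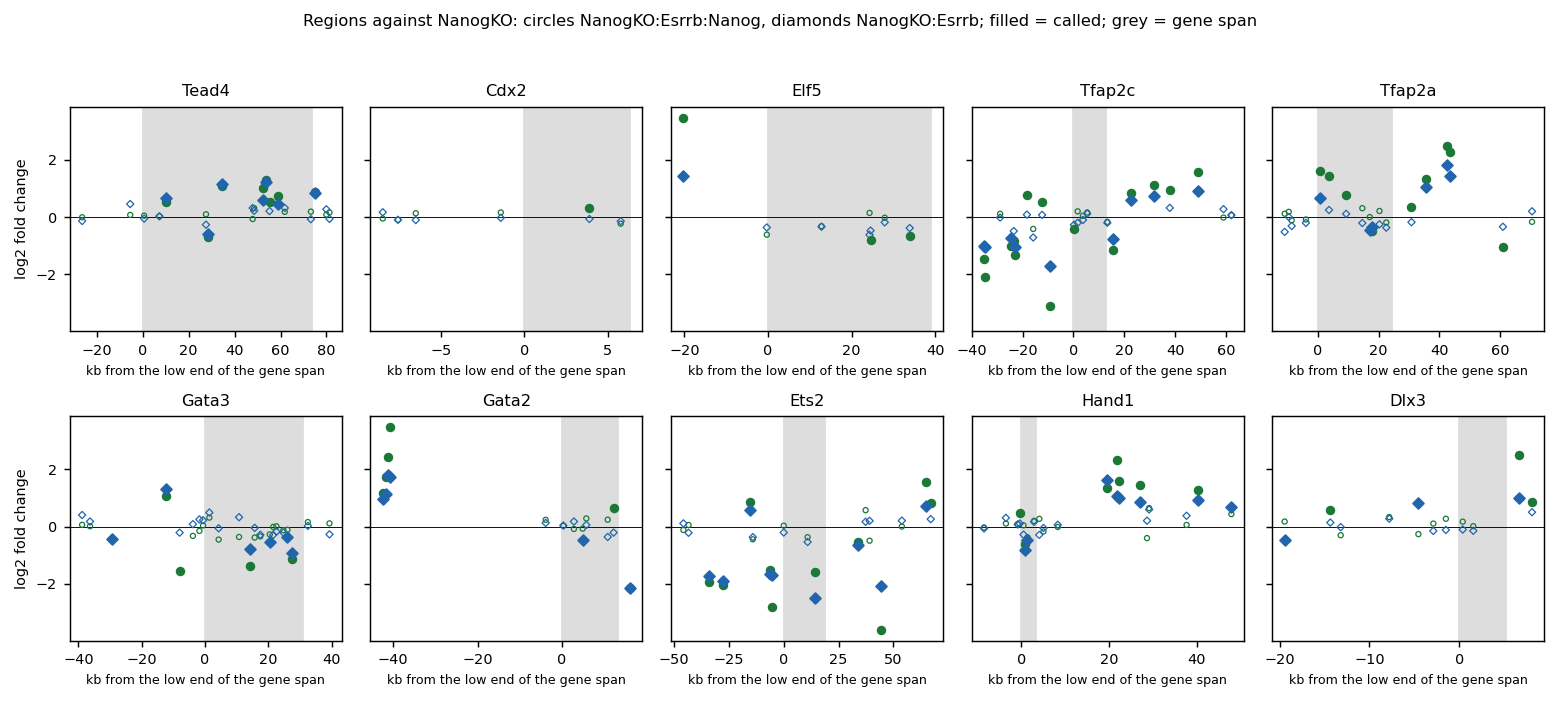
Log2 fold change of each region against NanogKO (vertical axis), for NanogKO:Esrrb:Nanog (green circles) and NanogKO:Esrrb (blue diamonds), by distance in kb from the low end of the gene span (horizontal axis), with filled symbols called and the span in grey. All but 1 of the called regions of Hand1 with a positive change lie above its span, and those of Tead4 lie mainly inside.

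Tead4, the trophectoderm regulator at the head of the programme, became more open at some regions inside its own span in both groups with added Esrrb. None of its regions was called between those groups, except without NanogKO:Esrrb replicate 2 (1 higher) or NanogKO:Esrrb:Nanog replicate 3 (3 higher). In NanogKO:Esrrb against NanogKO 6 of 19 regions rose and 1 fell, and in NanogKO:Esrrb:Nanog against NanogKO 7 rose and 1 fell. The fall in the first comparison was lost without NanogKO replicate 3 or NanogKO:Esrrb replicate 1. Of these rises, 5 and 6 were among the 14 regions within the span, where 18.1% and 25.2% of all regions in a gene span rose. The region of smallest p, chr6:128280583-128281138 within Tead4, held 9.41, 7.63 and 9.53 CPM in NanogKO:Esrrb:Nanog, 7.89, 8.52 and 8.58 CPM in NanogKO:Esrrb, against 2.71, 3.89 and 4.14 CPM in NanogKO. Every library with added Esrrb lay above every NanogKO library, and those groups overlapped each other. Its log2 fold change was 1.30 ± 0.16 (SE; adjusted p 1.3e-07) in NanogKO:Esrrb:Nanog against NanogKO and 1.21 ± 0.16 (adjusted p 8.6e-07) in NanogKO:Esrrb against NanogKO.

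A further Tead4 region, chr6:128261433-128262023 in the span, averaged 4.62 ± 0.464 CPM in NanogKO:Esrrb:Nanog, 4.88 ± 0.837 CPM in NanogKO:Esrrb, against 2.17 ± 0.0534 CPM in NanogKO (SD, n = 3 each). It rose by 1.09 ± 0.18 and 1.17 ± 0.18 on the log2 scale in NanogKO:Esrrb:Nanog and NanogKO:Esrrb against NanogKO. The region of most counts, chr6:128299655-128301050 at the high end of the span, held 35.3, 37.7 and 32.1 CPM in NanogKO:Esrrb:Nanog, 28.0, 29.0 and 30.4 CPM in NanogKO:Esrrb, against 30.4, 30.8 and 30.6 CPM in NanogKO. The NanogKO:Esrrb:Nanog libraries lay above all others, by 0.26 ± 0.11 on the log2 scale against NanogKO:Esrrb, which was not called (adjusted p 0.072). With the replicate numbers as a block the adjusted p was 0.033. It was also called by DESeq2, with factors within each chromosome and without NanogKO:Esrrb:Nanog replicate 3, at values between 0.28 and 0.33.

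Cdx2, the homeodomain factor that represses Pou5f1 in the trophectoderm, changed at 1 region. None of its 6 regions was called in NanogKO:Esrrb against NanogKO, and 1 was called in each comparison of NanogKO:Esrrb:Nanog (2 against NanogKO:Esrrb without NanogKO:Esrrb:Nanog replicate 3). The region over the promoter window, chr5:147305845-147307523, held 41.1, 38.1 and 36.2 CPM in NanogKO:Esrrb:Nanog, 43.8, 39.4 and 39.2 CPM in NanogKO:Esrrb, against 49.7, 44.8 and 40.5 CPM in NanogKO. The 3 groups overlapped, and the log2 fold change in NanogKO:Esrrb:Nanog against NanogKO was -0.23 with a 95% interval of -0.46 to 0.00 (adjusted p 0.094). It was called with library totals alone (-0.32), with factors taken within each chromosome (-0.28) and with loess offsets (-0.35).

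The called Cdx2 region, chr5:147304475-147305129 in the span, held 15.4, 17.1 and 15.7 CPM in NanogKO:Esrrb:Nanog, 12.8, 12.4 and 11.6 CPM in NanogKO:Esrrb, against 14.5, 12.7 and 11.2 CPM in NanogKO. The NanogKO:Esrrb:Nanog libraries lay above all others. The log2 fold change was 0.33 ± 0.12 (adjusted p 0.028) against NanogKO and 0.39 ± 0.12 (adjusted p 0.021) against NanogKO:Esrrb. Both calls were lost with library totals alone (0.24 and 0.29) and with loess offsets (0.20 and 0.27), the first also with factors within each chromosome (0.27). Without NanogKO:Esrrb:Nanog replicate 2 they were 0.28 and 0.35 and not called. The call against NanogKO was also lost without NanogKO replicate 2 (0.32) or 3 (0.24), and the call against NanogKO:Esrrb without NanogKO:Esrrb replicate 3 (0.35).

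**Figure D3:**
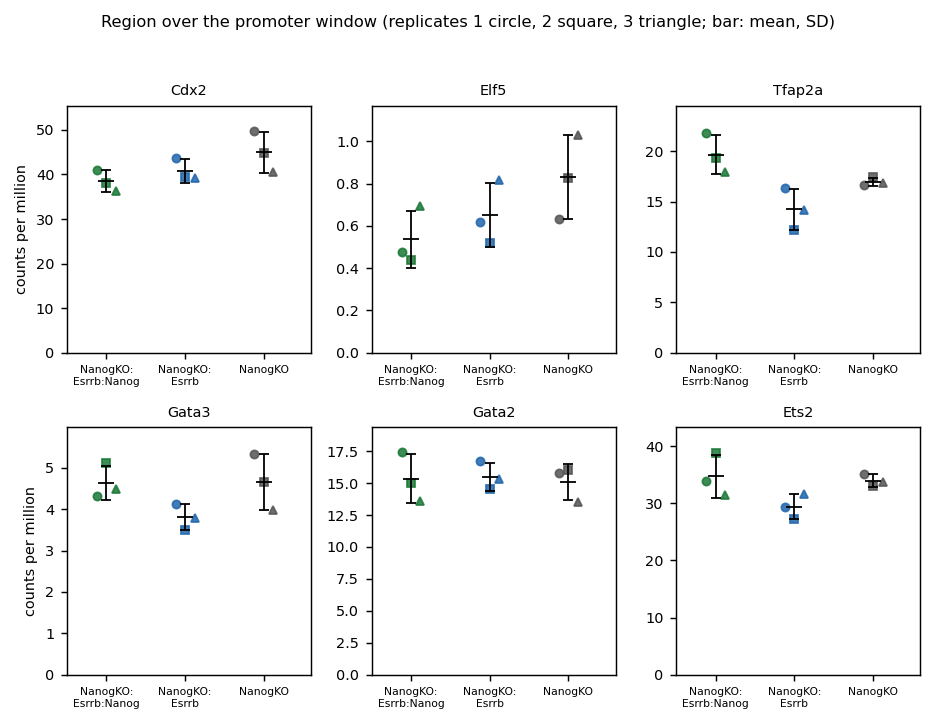
CPM of the region over or nearest the promoter window of the 6 genes with a window, by library (replicate 1 circle, 2 square, 3 triangle), with mean and SD bars, for NanogKO:Esrrb:Nanog, NanogKO:Esrrb and NanogKO. Against NanogKO the log2 fold changes of these regions in NanogKO:Esrrb:Nanog lie between -0.61 at Elf5 and 0.21 at Tfap2a, and none was called.

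Elf5, whose ETS factor sustains trophoblast stem cells and whose promoter is methylated in ES cells, carried the steepest rise of the 155 regions in NanogKO:Esrrb:Nanog against NanogKO:Esrrb. It lay at chr2:103391765-103391972, 20126 bp below the span (at lower coordinates, upstream of this plus-strand gene). It held 4.42, 4.52 and 5.26 CPM in NanogKO:Esrrb:Nanog, 1.09, 1.37 and 1.04 CPM in NanogKO:Esrrb, against 0.415, 0.514 and 0.345 CPM in NanogKO. The 3 groups did not overlap, with a step between each. No peak was listed there in NanogKO, so the region was counted only through the groups where it is high. In log2 terms the change was 3.46 ± 0.24 (11.0-fold; adjusted p 5.8e-12) against NanogKO and 2.01 ± 0.21 (4.04-fold; adjusted p 2.7e-07) against NanogKO:Esrrb, and that of NanogKO:Esrrb against NanogKO was 1.45 ± 0.25 (2.74-fold; adjusted p 5.2e-05).

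Of the 5 regions in the Elf5 span, 2 fell in NanogKO:Esrrb:Nanog against NanogKO and none was called in the other comparisons with all libraries. Without NanogKO replicate 3 or NanogKO:Esrrb:Nanog replicate 2 the falls numbered 1. In the further region chr2:103439791-103440181, the most open in the span, means were 7.34 ± 0.176 CPM in NanogKO:Esrrb:Nanog, 6.57 ± 0.364 CPM in NanogKO:Esrrb, against 7.43 ± 0.897 CPM in NanogKO (SD, n = 3 each), and it was not called in any comparison. The region at the promoter, chr2:103411727-103411881, lies 217 bp outside the span. It covers the far end of the printed stretch without its TEAD match and held 0.477, 0.440 and 0.692 CPM in NanogKO:Esrrb:Nanog, 0.616, 0.519 and 0.818 CPM in NanogKO:Esrrb, against 0.634, 0.827 and 1.03 CPM in NanogKO. These groups overlapped, and the log2 change of -0.61 in NanogKO:Esrrb:Nanog against NanogKO had a 95% interval of -1.24 to 0.02. Without NanogKO:Esrrb:Nanog replicate 3 it was -0.86 and called. The lower-called region at chr2:103445717-103446212 averaged 3.02 ± 0.584 CPM in NanogKO:Esrrb:Nanog, 3.67 ± 0.173 CPM in NanogKO:Esrrb, against 4.77 ± 0.189 CPM in NanogKO (SD, n = 3 each), and it fell by 0.65 ± 0.17 on the log2 scale in NanogKO:Esrrb:Nanog against NanogKO (adjusted p 0.0027). Summed over all 7 regions, Elf5 had a log2 fold change of 0.03 between NanogKO:Esrrb:Nanog and NanogKO, and over those within 10 kb one of -0.32 (adjusted p 0.013).

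**Figure D4:**
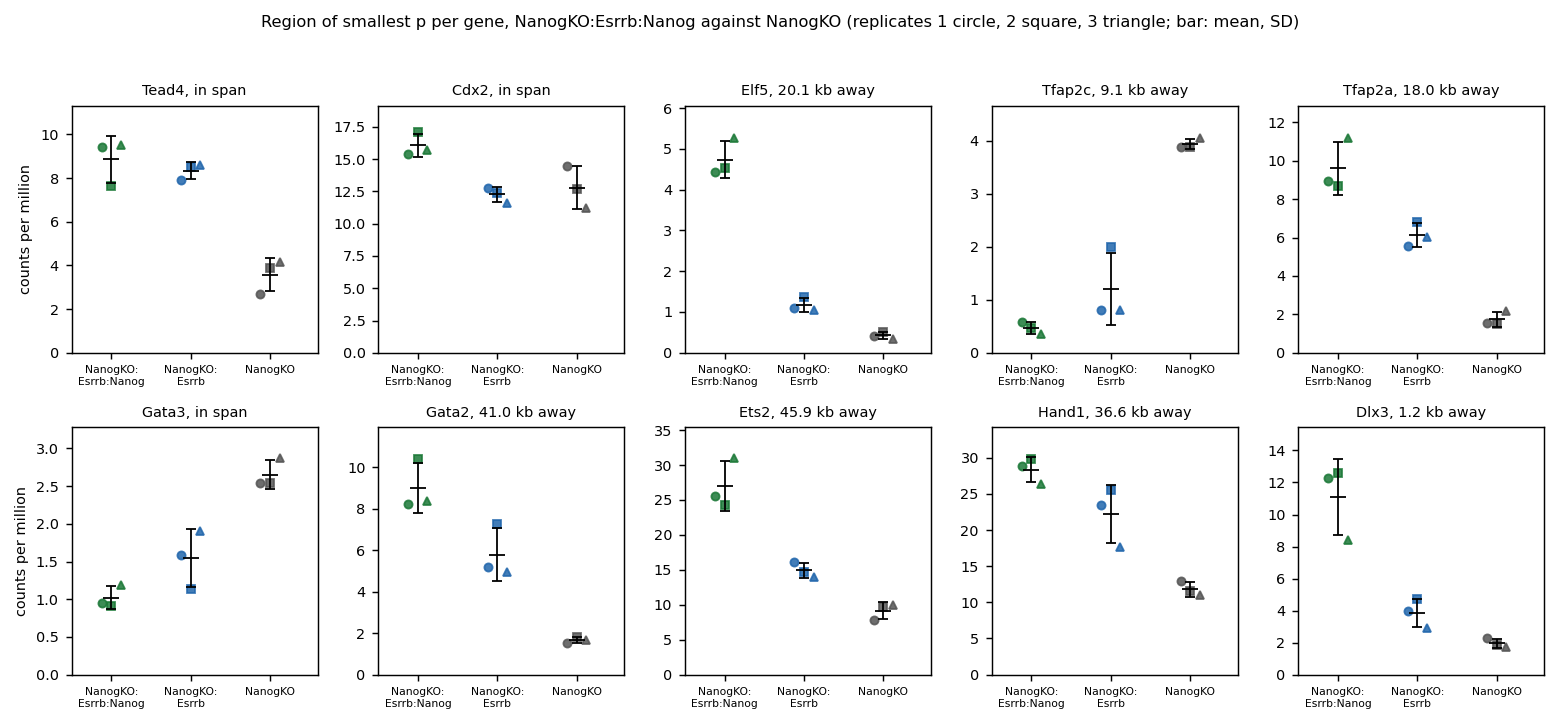
CPM by library of the region with the smallest p of each gene in NanogKO:Esrrb:Nanog against NanogKO, with replicates 1, 2 and 3 as circle, square and triangle and mean and SD bars, for NanogKO:Esrrb:Nanog, NanogKO:Esrrb and NanogKO. The Elf5 region rises in steps across the groups, while the groups with added Esrrb overlap at the Tead4 region.

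Tfap2c, the AP-2 factor that opens trophectoderm enhancers and is also active in germ cells, had falls on the low side of its span and rises on the high side. In NanogKO:Esrrb against NanogKO 3 of 22 regions rose and 6 fell, and in NanogKO:Esrrb:Nanog against NanogKO 6 rose and 8 fell. Of the 10 regions below the span, 5 fell and none rose in NanogKO:Esrrb against NanogKO, and 6 fell and 2 rose in NanogKO:Esrrb:Nanog against NanogKO. Of the 8 above it, 3 and 4 rose and 1 fell in each. At chr2:172536271-172536576, 9102 bp below the span, the region held 0.581, 0.469 and 0.346 CPM in NanogKO:Esrrb:Nanog, 0.815, 1.99 and 0.800 CPM in NanogKO:Esrrb, against 3.88, 3.88 and 4.05 CPM in NanogKO. The groups did not overlap, and NanogKO:Esrrb replicate 2 lay well above the other 2 of its group. This region had a peak in the NanogKO list alone. The fitted log2 fold change was -3.09 ± 0.30 (8.51-fold lower; adjusted p 3.7e-09) in NanogKO:Esrrb:Nanog against NanogKO, -1.39 ± 0.32 (adjusted p 0.0029) in NanogKO:Esrrb:Nanog against NanogKO:Esrrb and -1.70 ± 0.27 (adjusted p 1.1e-05) in NanogKO:Esrrb against NanogKO. At chr2:172522675-172523083, 22595 bp below the span, a smaller fall had 1.99, 2.14 and 2.68 CPM in NanogKO:Esrrb:Nanog, 2.21, 3.99 and 2.12 CPM in NanogKO:Esrrb, against 5.71, 6.06 and 5.35 CPM in NanogKO, with both groups of added Esrrb below NanogKO (-1.32 ± 0.21 and -1.04 ± 0.20 on the log2 scale).

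On the other side, the region at chr2:172594264-172594855, 35642 bp above the span, held 26.0, 22.6 and 19.1 CPM in NanogKO:Esrrb:Nanog, 12.5, 18.9 and 11.8 CPM in NanogKO:Esrrb, against 6.54, 6.72 and 9.55 CPM in NanogKO. Its groups did not overlap. On the log2 scale it was 1.56 ± 0.17 (2.96-fold; adjusted p 1.5e-08) in NanogKO:Esrrb:Nanog against NanogKO and 0.92 ± 0.17 (1.90-fold; adjusted p 7.6e-05) in NanogKO:Esrrb against NanogKO. A further region within the span, chr2:172550409-172551830, averaged 48.2 ± 3.29 CPM in NanogKO:Esrrb:Nanog, 47.0 ± 3.18 CPM in NanogKO:Esrrb, against 43.1 ± 4.66 CPM in NanogKO (SD, n = 3 each), and was not called in any comparison.

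NanogKO:Esrrb replicate 2 stood apart at Tfap2c. It was the highest of its group in 18 of 22 regions, with a median ratio of 1.53 to the mean of replicates 1 and 3, while over all 155 members it was the highest in 68 with a median ratio of 1.05. Without it, NanogKO:Esrrb against NanogKO gave 2 higher and 8 lower Tfap2c regions, and NanogKO:Esrrb:Nanog against NanogKO:Esrrb 7 higher and 0 lower, where all libraries gave 4 and 1. The fall at chr2:172536271-172536576 in NanogKO:Esrrb:Nanog against NanogKO:Esrrb was then -0.81 (adjusted p 0.053). Without replicate 1 the counts were 3 and 3 in NanogKO:Esrrb against NanogKO and 1 and 2 in NanogKO:Esrrb:Nanog against NanogKO:Esrrb, and without replicate 3 they were 3 and 3, and 1 and 1. The rises in NanogKO:Esrrb:Nanog against NanogKO:Esrrb also numbered 2 without NanogKO replicate 2 or 3 or NanogKO:Esrrb:Nanog replicate 2, and 1 without NanogKO:Esrrb:Nanog replicate 1.

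Tfap2a, a related AP-2 factor of trophoblast, surface ectoderm and neural crest, had the largest count of regions that rose when Nanog was present beside Esrrb. By share it did not stand alone, as Gata2 had the same share higher there, 6 of 12 regions, and no fall. Of the 18 Tfap2a regions, 9 rose and 1 fell in NanogKO:Esrrb:Nanog against NanogKO:Esrrb, where 12.6% of all regions rose and 12.0% fell. In NanogKO:Esrrb:Nanog against NanogKO 7 rose and 2 fell, and in NanogKO:Esrrb against NanogKO 4 rose and 2 fell. The falls of this last comparison numbered 0 without NanogKO replicate 1 or 2 or NanogKO:Esrrb replicate 2, and 1 without NanogKO:Esrrb replicate 3. The fall in NanogKO:Esrrb:Nanog against NanogKO:Esrrb was lost without any 1 library of those groups except NanogKO:Esrrb:Nanog replicate 3. Inside the span, the region at chr13:40717157-40717754 held 14.5, 11.1 and 12.1 CPM in NanogKO:Esrrb:Nanog, 5.56, 4.62 and 6.51 CPM in NanogKO:Esrrb, against 4.68, 4.72 and 4.62 CPM in NanogKO. NanogKO:Esrrb and NanogKO overlapped there and NanogKO:Esrrb:Nanog stood above both. The log2 fold change was 1.43 ± 0.15 (adjusted p 1e-08) against NanogKO and 1.18 ± 0.15 (adjusted p 3.9e-06) against NanogKO:Esrrb, while NanogKO:Esrrb against NanogKO gave 0.25 with a 95% interval of -0.06 to 0.56.

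A second Tfap2a pattern lay at some of the 6 regions above the span, where accessibility rose in NanogKO:Esrrb and again in NanogKO:Esrrb:Nanog. The region at chr13:40756242-40756832, 18004 bp from the span, held 8.94, 8.66 and 11.2 CPM in NanogKO:Esrrb:Nanog, 5.58, 6.80 and 6.05 CPM in NanogKO:Esrrb, against 1.54, 1.51 and 2.17 CPM in NanogKO. Its 3 groups did not overlap. In log2 terms the change was 2.47 ± 0.18 (5.53-fold; adjusted p 1e-11) in NanogKO:Esrrb:Nanog against NanogKO, 0.65 ± 0.16 (adjusted p 0.0041) in NanogKO:Esrrb:Nanog against NanogKO:Esrrb and 1.82 ± 0.17 (3.53-fold; adjusted p 6.9e-09) in NanogKO:Esrrb against NanogKO. A further region beside it, chr13:40757074-40757403, without a peak in the NanogKO list, had log2 fold changes of 2.27 ± 0.23, 0.83 ± 0.20 and 1.45 ± 0.23 in the same comparisons. Another rise of this side, at chr13:40748992-40749821, a further region, had 1.32 ± 0.14, 0.27 ± 0.13 and 1.06 ± 0.14, the middle value not being called (adjusted p 0.15) except without NanogKO:Esrrb:Nanog replicate 3 (0.35). Other regions there differed. The further region chr13:40744313-40745032 had 0.35 ± 0.13, 0.52 ± 0.13 and -0.17 ± 0.13, the last not called. The further region chr13:40774673-40775009 fell, with -1.05 ± 0.23, -0.72 ± 0.23 and -0.34 ± 0.22, the last not called.

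The Tfap2a promoter region, chr13:40733907-40734312, covers the end of the printed stretch far from the start and not the bases beside the start. It held 21.8, 19.3 and 17.9 CPM in NanogKO:Esrrb:Nanog, 16.3, 12.2 and 14.2 CPM in NanogKO:Esrrb, against 16.6, 17.4 and 16.8 CPM in NanogKO. The NanogKO:Esrrb:Nanog libraries were above all others and the NanogKO:Esrrb libraries below all others. Between these groups the log2 fold change was 0.46 ± 0.12 (adjusted p 0.0077), and without NanogKO:Esrrb replicate 2 it was 0.36 (adjusted p 0.056). Neither group was called against NanogKO, with 0.21 in NanogKO:Esrrb:Nanog (95% interval -0.04 to 0.47) and -0.25 in NanogKO:Esrrb (-0.50 to 0.00).

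Gata3, the GATA factor that acts beside CDX2 downstream of TEAD4, had more falls than rises among its regions called against NanogKO. The share that fell was 22.7% in NanogKO:Esrrb, where 17.0% of all regions fell. It was 13.6% in NanogKO:Esrrb:Nanog, below the 24.4% of all regions. Of 22 regions, 1 rose and 5 fell in NanogKO:Esrrb against NanogKO, 1 rose and 3 fell in NanogKO:Esrrb:Nanog against NanogKO, and none was called in NanogKO:Esrrb:Nanog against NanogKO:Esrrb. The first count of falls was 3 without NanogKO replicate 1 or 2 and 2 without NanogKO:Esrrb replicate 2. Without NanogKO:Esrrb:Nanog replicate 3, 5 regions fell against NanogKO and 5 against NanogKO:Esrrb, and without NanogKO:Esrrb replicate 1 or 2, 1 fell in the last comparison. Of the falls with all libraries, 4 and 2 were among the 12 regions within the span, where 16.4% and 21.3% of all regions in a gene span fell. The region of smallest p, chr2:9871150-9871524, held 0.954, 0.910 and 1.19 CPM in NanogKO:Esrrb:Nanog, 1.59, 1.14 and 1.91 CPM in NanogKO:Esrrb, against 2.54, 2.54 and 2.88 CPM in NanogKO. All NanogKO libraries were above the others, and NanogKO:Esrrb:Nanog and NanogKO:Esrrb overlapped. This region had a peak in the NanogKO list alone. The fitted log2 fold change was -1.36 ± 0.23 (adjusted p 2.1e-05) in NanogKO:Esrrb:Nanog against NanogKO and -0.78 ± 0.22 (adjusted p 0.0064) in NanogKO:Esrrb against NanogKO, the second lost without NanogKO:Esrrb replicate 2 (-0.59, adjusted p 0.057). Between NanogKO:Esrrb:Nanog and NanogKO:Esrrb it was -0.59 (adjusted p 0.071), and 0.044 with the replicate block. At chr2:9877327-9877645, also in the span, 6.57, 5.90 and 4.79 CPM in NanogKO:Esrrb:Nanog and 5.13, 4.0 and 5.08 CPM in NanogKO:Esrrb stood against 6.85, 6.52 and 7.44 CPM in NanogKO. Only NanogKO:Esrrb was called there against NanogKO, at -0.55 ± 0.16 on the log2 scale (adjusted p 0.0063).

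The single Gata3 rise was at chr2:9844445-9845049, 12029 bp below the span, with 1.66, 2.46 and 2.39 CPM in NanogKO:Esrrb:Nanog, 2.09, 2.56 and 3.13 CPM in NanogKO:Esrrb, against 0.756, 1.38 and 0.953 CPM in NanogKO. The groups with added Esrrb lay above NanogKO and overlapped each other. This region had no peak in the NanogKO list. On the log2 scale it was 1.05 ± 0.25 (adjusted p 0.00093) in NanogKO:Esrrb:Nanog and 1.32 ± 0.24 (adjusted p 0.0001) in NanogKO:Esrrb, each against NanogKO. At the promoter, chr2:9878471-9878678, which covers the start and not the 3 AP-2 matches printed above, held 4.31, 5.11 and 4.48 CPM in NanogKO:Esrrb:Nanog, 4.13, 3.50 and 3.79 CPM in NanogKO:Esrrb, against 5.34, 4.67 and 3.99 CPM in NanogKO. It was not called in any comparison, and the 95% interval in NanogKO:Esrrb:Nanog against NanogKO was -0.35 to 0.32.

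Gata2, which shares trophoblast targets with GATA3 and is also a blood stem cell factor, had a cluster of 4 regions 40669 to 42264 bp below its span, on the upstream side, that rose in both comparisons with NanogKO. Of its 12 regions, 4 rose and 2 fell in NanogKO:Esrrb against NanogKO, 5 rose and 1 fell in NanogKO:Esrrb:Nanog against NanogKO, and 6 rose in NanogKO:Esrrb:Nanog against NanogKO:Esrrb (2 without NanogKO:Esrrb:Nanog replicate 2). The cluster's region nearest the gene, chr6:88153041-88153222, held 6.10, 7.83 and 6.61 CPM in NanogKO:Esrrb:Nanog, 1.41, 3.06 and 1.51 CPM in NanogKO:Esrrb, against 0.854, 0.569 and 0.426 CPM in NanogKO. The 3 groups did not overlap. The log2 fold change was 3.49 ± 0.28 (11.2-fold; adjusted p 6.4e-11) in NanogKO:Esrrb:Nanog against NanogKO, 1.76 ± 0.24 (3.40-fold; adjusted p 9.4e-06) in NanogKO:Esrrb:Nanog against NanogKO:Esrrb and 1.72 ± 0.28 (3.30-fold; adjusted p 2.4e-05) in NanogKO:Esrrb against NanogKO. Its only peak was in the NanogKO:Esrrb:Nanog list, so this region was counted through the group where it is highest.

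Its neighbour chr6:88152406-88152874 held 8.25, 10.4 and 8.39 CPM in NanogKO:Esrrb:Nanog, 5.19, 7.25 and 4.94 CPM in NanogKO:Esrrb, against 1.51, 1.80 and 1.68 CPM in NanogKO, again without overlap. In log2 terms the change was 2.42 ± 0.18 in NanogKO:Esrrb:Nanog and 1.79 ± 0.18 in NanogKO:Esrrb against NanogKO. The further regions chr6:88151966-88152255 and chr6:88151294-88151627 rose by 1.72 ± 0.22 and 1.19 ± 0.18 in NanogKO:Esrrb:Nanog against NanogKO. NanogKO:Esrrb replicate 2 was the highest of its group in all 4 regions of the cluster.

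A fall lay on the other side of Gata2. The region at chr6:88209548-88210472, 2516 bp above the span, held 1.82, 1.17 and 1.21 CPM in NanogKO:Esrrb:Nanog, 1.13, 1.86 and 1.30 CPM in NanogKO:Esrrb, against 5.58, 6.63 and 6.67 CPM in NanogKO. Both groups with added Esrrb were below every NanogKO library and overlapped each other. This region had a peak in the NanogKO list alone. The fitted log2 fold change was -2.16 ± 0.21 (4.47-fold lower; adjusted p 3.5e-09) in NanogKO:Esrrb:Nanog and -2.13 ± 0.21 (4.37-fold lower; adjusted p 8.9e-09) in NanogKO:Esrrb, each against NanogKO. Between NanogKO:Esrrb:Nanog and NanogKO:Esrrb it was -0.03, with a 95% interval of -0.49 to 0.43.

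Elf5 and Tfap2a each have another promoter window, which no counted region overlapped. The Gata2 gene has a pair of promoter windows, both overlapped by a counted region. The first, without a motif, was covered by chr6:88193818-88194576, which held 17.4, 15.0 and 13.6 CPM in NanogKO:Esrrb:Nanog, 16.7, 14.5 and 15.3 CPM in NanogKO:Esrrb, against 15.8, 16.0 and 13.5 CPM in NanogKO, and was not called in any comparison. The further region chr6:88198598-88198953, which covers the end of the printed window nearest the start but neither match, held 10.9, 11.2 and 9.04 CPM in NanogKO:Esrrb:Nanog, 8.84, 7.18 and 7.46 CPM in NanogKO:Esrrb, against 10.5, 11.6 and 10.5 CPM in NanogKO. It was lowest in NanogKO:Esrrb, whose libraries lay below all others. On the log2 scale it was -0.48 ± 0.13 (adjusted p 0.0057) in NanogKO:Esrrb against NanogKO and 0.41 ± 0.13 (adjusted p 0.028) in NanogKO:Esrrb:Nanog against NanogKO:Esrrb. This last call was lost with library totals alone (0.30) and loess offsets (0.29), and without NanogKO:Esrrb replicate 2 or 3 or NanogKO:Esrrb:Nanog replicate 1 or 2, with values between 0.34 and 0.37.

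Ets2, an ETS factor that trophoblast stem cells need for self-renewal, lost accessibility at most of its regions called against NanogKO. Of 18 regions, 2 rose and 7 fell in NanogKO:Esrrb against NanogKO and 3 rose and 7 fell in NanogKO:Esrrb:Nanog against NanogKO, and 5 had a peak in the NanogKO list only. Between both groups of added Esrrb the split was 3 higher and 2 lower. The rises numbered 1 without NanogKO:Esrrb replicate 1 and the falls 1 without NanogKO:Esrrb replicate 3 or NanogKO:Esrrb:Nanog replicate 1, while the rises in NanogKO:Esrrb against NanogKO numbered 1 without any 1 library of those groups. The region at chr16:95667874-95668482, 33925 bp below the span, held 1.24, 1.73 and 1.90 CPM in NanogKO:Esrrb:Nanog, 1.35, 1.99 and 2.23 CPM in NanogKO:Esrrb, against 5.54, 6.80 and 6.14 CPM in NanogKO. NanogKO lay above both other groups, which overlapped. The log2 fold change was -1.92 ± 0.20 (3.79-fold lower; adjusted p 1.5e-08) in NanogKO:Esrrb:Nanog and -1.72 ± 0.20 (3.30-fold lower; adjusted p 1.3e-07) in NanogKO:Esrrb against NanogKO.

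The region inside Ets2 at chr16:95716455-95716642 held 1.04, 1.47 and 0.761 CPM in NanogKO:Esrrb:Nanog, 0.397, 0.620 and 0.678 CPM in NanogKO:Esrrb, against 3.24, 3.23 and 3.14 CPM in NanogKO. The groups did not overlap, with the lowest values in NanogKO:Esrrb. In log2 terms the change was -1.59 ± 0.24 (adjusted p 5e-06) in NanogKO:Esrrb:Nanog against NanogKO, 0.90 ± 0.28 (adjusted p 0.02) in NanogKO:Esrrb:Nanog against NanogKO:Esrrb and -2.49 ± 0.26 (5.61-fold lower; adjusted p 2.1e-08) in NanogKO:Esrrb against NanogKO. The middle call was lost without NanogKO:Esrrb replicate 1 (0.71) or NanogKO:Esrrb:Nanog replicate 2 (0.65). The steepest fall of all 155 regions was a further one, chr16:95746558-95746783, 25509 bp above the span, with 0.207, 0.469 and 0.588 CPM in NanogKO:Esrrb:Nanog, 1.13, 2.03 and 0.609 CPM in NanogKO:Esrrb, against 5.05, 5.81 and 4.91 CPM in NanogKO. It did not overlap between groups, and its log2 fold change in NanogKO:Esrrb:Nanog against NanogKO was -3.62 ± 0.33 (12.3-fold lower; adjusted p 9.2e-10).

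Against this trend, Ets2 had a broad rise at chr16:95766909-95768013, 45860 bp above the span, with 25.5, 24.3 and 31.0 CPM in NanogKO:Esrrb:Nanog, 16.1, 14.7 and 14.0 CPM in NanogKO:Esrrb, against 7.83, 9.70 and 9.95 CPM in NanogKO. The groups did not overlap. The fitted log2 fold change was 1.55 ± 0.13 (2.94-fold; adjusted p 1.7e-10) in NanogKO:Esrrb:Nanog against NanogKO, 0.85 ± 0.12 (adjusted p 3e-05) in NanogKO:Esrrb:Nanog against NanogKO:Esrrb and 0.70 ± 0.13 (adjusted p 8.7e-05) in NanogKO:Esrrb against NanogKO. The promoter region, chr16:95701666-95703101, held 34.0, 38.8 and 31.4 CPM in NanogKO:Esrrb:Nanog, 29.4, 27.2 and 31.6 CPM in NanogKO:Esrrb, against 35.2, 33.0 and 33.7 CPM in NanogKO, and was not called in any comparison. Without NanogKO:Esrrb:Nanog replicate 3 it was called in NanogKO:Esrrb:Nanog against NanogKO:Esrrb (0.31). Its 250 bases before the start held none of the searched motifs.

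Hand1, the bHLH factor of trophoblast giant cells, became more open at a row of regions on the high side of its span. Of 20 regions, 6 rose and 2 fell in NanogKO:Esrrb against NanogKO, 6 rose and 1 fell in NanogKO:Esrrb:Nanog against NanogKO, and 5 rose in NanogKO:Esrrb:Nanog against NanogKO:Esrrb. Among the 12 regions above the span the rises numbered 6, 5 and 5, with no fall. The last count over the gene was 1 without NanogKO:Esrrb replicate 1 or 3 or NanogKO:Esrrb:Nanog replicate 2, and 2 without NanogKO:Esrrb:Nanog replicate 1. The 2 falls in NanogKO:Esrrb against NanogKO became 1 without any 1 library of those groups except NanogKO:Esrrb replicate 2. The region of most counts among them, chr11:57868700-57869421, 36553 bp away, held 28.9, 29.8 and 26.4 CPM in NanogKO:Esrrb:Nanog, 23.5, 25.5 and 17.7 CPM in NanogKO:Esrrb, against 13.0, 11.5 and 11.0 CPM in NanogKO. The groups did not overlap. On the log2 scale it was 1.26 ± 0.13 (2.39-fold; adjusted p 8.3e-09) in NanogKO:Esrrb:Nanog and 0.91 ± 0.13 (1.88-fold; adjusted p 3.1e-06) in NanogKO:Esrrb against NanogKO. Between NanogKO:Esrrb:Nanog and NanogKO:Esrrb it was 0.35 ± 0.13 (adjusted p 0.044), a call lost in 10 alternatives with values between 0.21 and 0.39. They include library totals alone and the fits without NanogKO:Esrrb replicate 1 or 3, NanogKO:Esrrb:Nanog replicate 1 or 2 and NanogKO replicate 2 or 3.

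The region at chr11:57855534-57855924, 23387 bp from Hand1, held 4.79, 6.40 and 4.46 CPM in NanogKO:Esrrb:Nanog, 3.02, 4.57 and 2.73 CPM in NanogKO:Esrrb, against 1.83, 1.82 and 2.03 CPM in NanogKO. Both groups with added Esrrb lay above NanogKO and overlapped each other. Its log2 fold change was 1.45 ± 0.20 (adjusted p 1.4e-06) in NanogKO:Esrrb:Nanog and 0.86 ± 0.20 (adjusted p 0.0015) in NanogKO:Esrrb against NanogKO. The largest Hand1 rise, 2.31 ± 0.34 (4.98-fold; adjusted p 3.1e-06) in NanogKO:Esrrb:Nanog against NanogKO, was at the 70-bp region chr11:57850463-57850532, with 1.24, 1.91 and 1.14 CPM in NanogKO:Esrrb:Nanog, 0.715, 0.687 and 0.365 CPM in NanogKO:Esrrb, against 0.244, 0.386 and 0.203 CPM in NanogKO. NanogKO:Esrrb:Nanog stood above the others, and NanogKO:Esrrb overlapped NanogKO.

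The 4 regions within Hand1 did not share these rises. The further region chr11:57831187-57832096 averaged 14.2 ± 0.238 CPM in NanogKO:Esrrb:Nanog, 13.8 ± 0.397 CPM in NanogKO:Esrrb, against 12.3 ± 0.136 CPM in NanogKO (SD, n = 3 each), and was not called in any comparison (95% interval -0.04 to 0.43 in NanogKO:Esrrb:Nanog against NanogKO). Another further region in the span, chr11:57829499-57829664, fell by 0.59 ± 0.20 and 0.82 ± 0.20 on the log2 scale in NanogKO:Esrrb:Nanog and NanogKO:Esrrb against NanogKO (adjusted p 0.017 and 0.0019). The first of these was lost without NanogKO replicate 1 (-0.44) or NanogKO:Esrrb:Nanog replicate 3 (-0.49).

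Dlx3, a homeodomain factor of the placental labyrinth, had a rise beside the gene. The region at chr11:95126468-95127002, 1172 bp above the span, held 12.3, 12.6 and 8.39 CPM in NanogKO:Esrrb:Nanog, 3.97, 4.69 and 2.92 CPM in NanogKO:Esrrb, against 2.27, 1.87 and 1.72 CPM in NanogKO. The groups did not overlap, and replicate 3 was the lowest of each. The log2 fold change was 2.50 ± 0.19 (5.67-fold; adjusted p 4.7e-11) in NanogKO:Esrrb:Nanog against NanogKO, 1.52 ± 0.18 (2.86-fold; adjusted p 2.1e-06) in NanogKO:Esrrb:Nanog against NanogKO:Esrrb and 0.99 ± 0.20 (1.98-fold; adjusted p 0.00023) in NanogKO:Esrrb against NanogKO.

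The further Dlx3 region chr11:95115458-95115680, 4437 bp below the span, was highest in NanogKO:Esrrb. It held 0.975, 1.20 and 1.05 CPM in NanogKO:Esrrb:Nanog, 2.56, 2.03 and 2.21 CPM in NanogKO:Esrrb, against 1.00, 1.38 and 1.46 CPM in NanogKO. NanogKO:Esrrb was above both other groups, which overlapped. In log2 terms the change was -1.08 ± 0.23 (adjusted p 0.0014) in NanogKO:Esrrb:Nanog against NanogKO:Esrrb and 0.81 ± 0.22 (adjusted p 0.0049) in NanogKO:Esrrb against NanogKO. In all, 3 of 11 Dlx3 regions rose and none fell in NanogKO:Esrrb:Nanog against NanogKO, where 2 rose and 1 fell in NanogKO:Esrrb against NanogKO. Dlx3 had 3 rises and 1 fall in NanogKO:Esrrb:Nanog against NanogKO:Esrrb, with 1 rise without NanogKO:Esrrb replicate 1 and 5 without NanogKO:Esrrb:Nanog replicate 3. The fall against NanogKO was lost without NanogKO replicate 1 or 2 or NanogKO:Esrrb replicate 1 or 3, and without NanogKO replicate 3 or NanogKO:Esrrb:Nanog replicate 1, 1 region fell in NanogKO:Esrrb:Nanog against NanogKO. The 2 regions overlapping the span were not called in any comparison, the further one at chr11:95120053-95120963 averaging 14.2 ± 1.56, 11.7 ± 0.547 and 12.6 ± 0.279 CPM in NanogKO:Esrrb:Nanog, NanogKO:Esrrb and NanogKO (SD, n = 3 each). Without NanogKO:Esrrb:Nanog replicate 3 this last region was called in NanogKO:Esrrb:Nanog against NanogKO:Esrrb (0.36).

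Summed over all regions of a gene, accessibility was higher at 6 of the 10 genes in NanogKO:Esrrb:Nanog against NanogKO and lower at none, where 48.7% of 18799 genes were called, 24.4% higher and 24.3% lower. The largest was Tfap2a, with 210, 198 and 189 CPM in NanogKO:Esrrb:Nanog, 167, 148 and 163 CPM in NanogKO:Esrrb, against 154, 154 and 149 CPM in NanogKO. Its log2 fold change was 0.39 ± 0.06 (adjusted p 3.4e-05) against NanogKO and 0.32 ± 0.06 (adjusted p 0.0016) against NanogKO:Esrrb. Hand1 followed with 110, 120 and 110 CPM in NanogKO:Esrrb:Nanog, 106, 119 and 97.8 CPM in NanogKO:Esrrb, against 88.6, 87.8 and 85.9 CPM in NanogKO, a log2 change of 0.38 ± 0.07 (adjusted p 0.00017) in NanogKO:Esrrb:Nanog and 0.30 ± 0.07 (adjusted p 0.0019) in NanogKO:Esrrb. NanogKO libraries lay below all others at both genes except that NanogKO and NanogKO:Esrrb overlapped at Tfap2a.

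The other sums called in NanogKO:Esrrb:Nanog against NanogKO were those of Gata2 (0.27 ± 0.06), Dlx3 (0.25 ± 0.08), Tfap2c (0.24 ± 0.09) and Tead4 (0.19 ± 0.06). That of Tead4 was lost without NanogKO replicate 1 (0.13) and with library totals alone (0.12). The Dlx3 sum was lost without NanogKO replicate 3 (0.23) or NanogKO:Esrrb:Nanog replicate 2 (0.22). Tfap2c was lost without NanogKO:Esrrb:Nanog replicate 1 (0.21), without each NanogKO library (0.21 to 0.25) and with library totals alone (0.17). Over regions within 10 kb, the Hand1, Gata2 and Tfap2c sums were 0.01, 0.02 and 0.08 and not called, nor was that of Hand1 in NanogKO:Esrrb against NanogKO (0.04).

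In NanogKO:Esrrb against NanogKO, the sum of Hand1 was called higher and that of Ets2 lower, where 34.6% of all genes were called, 17.7% higher and 16.9% lower. With the replicate block Gata2 was also higher (0.15, adjusted p 0.03), as it was without NanogKO replicate 1 or NanogKO:Esrrb replicate 3 (0.19 each). Ets2 summed to 92.0, 107 and 109 CPM in NanogKO:Esrrb:Nanog, 87.2, 84.3 and 90.9 CPM in NanogKO:Esrrb, against 96.5, 104 and 103 CPM in NanogKO. NanogKO:Esrrb lay below the other groups, which overlapped, with a log2 fold change of -0.21 ± 0.07 (adjusted p 0.02) against NanogKO, and 0.23 ± 0.07 (adjusted p 0.022) in NanogKO:Esrrb:Nanog against NanogKO:Esrrb. The first was lost without NanogKO replicate 2 (-0.19) or 3 (-0.20) or NanogKO:Esrrb replicate 1 (-0.21) or 2 (-0.18), and the second without NanogKO:Esrrb replicate 1 (0.23) or 2 (0.20) or NanogKO:Esrrb:Nanog replicate 2 (0.20) or within 10 kb (0.14). Tfap2a and Ets2 were the genes called higher in NanogKO:Esrrb:Nanog against NanogKO:Esrrb, where 20.9% of all genes were called, 10.6% higher and 10.3% lower. Dlx3, at 0.22 ± 0.08 (adjusted p 0.055), was called there with the replicate block (adjusted p 0.014).

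**Figure D5:**
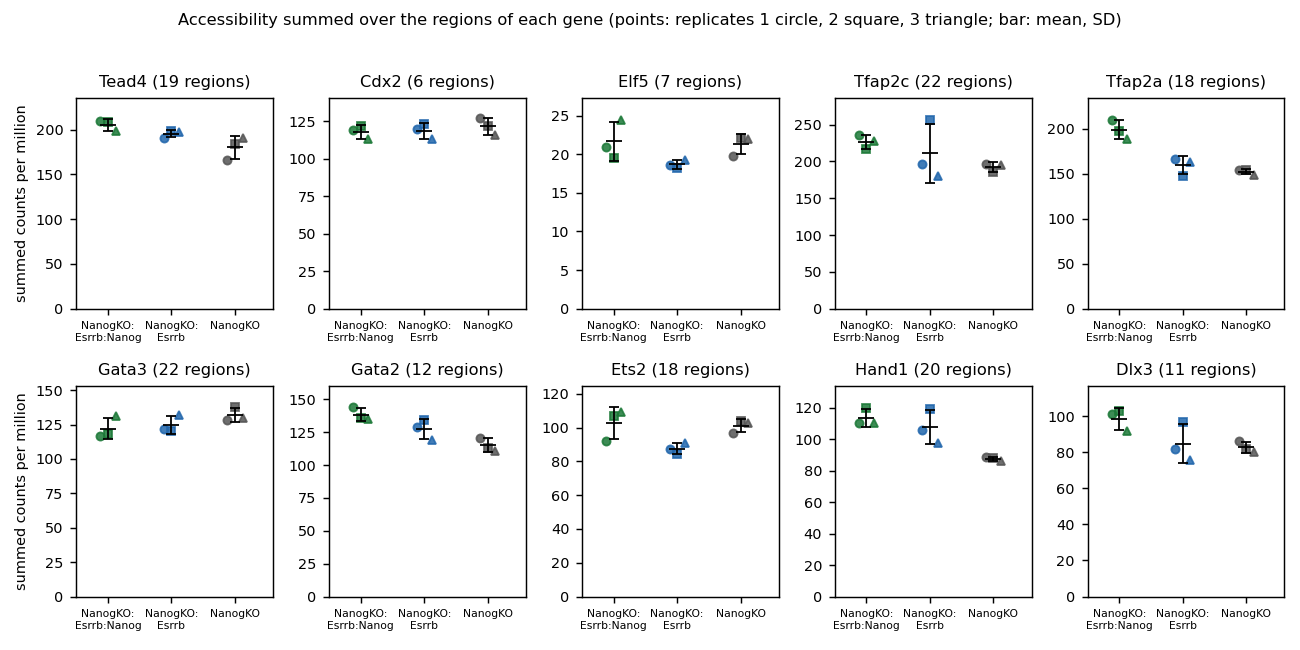
CPM summed over the regions of each gene, by library (replicate 1 circle, 2 square, 3 triangle), with mean and SD bars, for NanogKO:Esrrb:Nanog, NanogKO:Esrrb and NanogKO. Tfap2a stands highest in NanogKO:Esrrb:Nanog at 189 to 210 CPM, and Cdx2 and Gata3 overlap between the groups.

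The sums of Cdx2, Elf5 and Gata3 were not called in any comparison. Cdx2 summed to 119, 122 and 113 CPM in NanogKO:Esrrb:Nanog, 120, 123 and 113 CPM in NanogKO:Esrrb, against 127, 122 and 116 CPM in NanogKO, and its 95% interval in NanogKO:Esrrb:Nanog against NanogKO was -0.17 to 0.08. Gata3 summed to 117, 118 and 131 CPM in NanogKO:Esrrb:Nanog, 122, 120 and 132 CPM in NanogKO:Esrrb, against 128, 138 and 130 CPM in NanogKO, with an interval of -0.24 to 0.02. Its fall in NanogKO:Esrrb:Nanog against NanogKO was called with library totals alone (-0.18) and without NanogKO:Esrrb:Nanog replicate 3 (-0.16). The groups overlapped at both genes. Among 9662 genes of 5 or more regions, the sum most like that of a called member over the 9 libraries, by Pearson's r of log2 CPM, was Ybx1 for Tfap2a (0.978), Nob1 for Hand1 (0.987), Apol7a for Gata2 (0.986), Gramd4 for Dlx3 (0.962), Csrnp1 for Tfap2c (0.941), Tfcp2 for Tead4 (0.965) and Syt16 for Ets2 (0.966). These are the highest of many values over 9 libraries in 3 groups, and so describe only a likeness in level.

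Other genes of the trophoblast programme were read from 3 lists. The 11 trophoblast stem cell genes had 106 regions, of which 6 rose and 31 fell in NanogKO:Esrrb against NanogKO, 16 rose and 32 fell in NanogKO:Esrrb:Nanog against NanogKO, and 19 rose and 9 fell in NanogKO:Esrrb:Nanog against NanogKO:Esrrb. In that order 34.9%, 45.3% and 26.4% of the list were called, beside 37.0%, 49.3% and 24.6% of all regions, of which 20.0%, 24.9% and 12.6% rose and 17.0%, 24.4% and 12.0% fell. The region of smallest p against NanogKO was inside Fgfr2, the receptor for the FGF4 that sustains trophoblast stem cells, at chr7:130176910-130177405, with 0.829, 0.645 and 0.605 CPM in NanogKO:Esrrb:Nanog, 0.974, 0.703 and 0.870 CPM in NanogKO:Esrrb, against 8.17, 11.0 and 6.26 CPM in NanogKO. NanogKO stood far above both other groups, which overlapped. The fitted log2 fold change was -3.61 ± 0.23 (adjusted p 1.8e-12) in NanogKO:Esrrb:Nanog and -3.32 ± 0.22 (adjusted p 1.5e-11) in NanogKO:Esrrb against NanogKO.

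Near Cdh3, the placental cadherin, the region chr8:106563668-106564271 held 1.76, 2.00 and 2.28 CPM in NanogKO:Esrrb:Nanog, 2.92, 4.79 and 3.74 CPM in NanogKO:Esrrb, against 11.4, 12.5 and 12.0 CPM in NanogKO, a log2 change of -2.57 ± 0.18 (adjusted p 5.4e-12) in NanogKO:Esrrb:Nanog and -1.65 ± 0.16 (adjusted p 1.1e-08) in NanogKO:Esrrb against NanogKO. The region near Eomes, a T-box factor of trophoblast stem cells, at chr9:118471507-118471674 rose by 1.65 ± 0.26 (adjusted p 6.4e-05) in NanogKO:Esrrb:Nanog against NanogKO:Esrrb. It held 1.93, 2.88 and 3.65 CPM in NanogKO:Esrrb:Nanog, 0.914, 0.770 and 1.01 CPM in NanogKO:Esrrb, against 0.658, 0.863 and 0.487 CPM in NanogKO.

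Of the differentiated trophoblast list, 6 of 10 genes had a region, 57 in all. In NanogKO:Esrrb against NanogKO 10 rose and 8 fell, in NanogKO:Esrrb:Nanog against NanogKO 15 rose and 16 fell, and in NanogKO:Esrrb:Nanog against NanogKO:Esrrb 5 rose and 7 fell. The shares called were 31.6%, 54.4% and 21.1%, beside those of all regions just given. The region near Gcm1, the factor of labyrinth trophoblast, at chr9:78045157-78045441 fell by 2.07 ± 0.24 (adjusted p 6.8e-08) in NanogKO:Esrrb:Nanog against NanogKO, averaging 1.17 ± 0.239 CPM in NanogKO:Esrrb:Nanog, 2.12 ± 0.836 CPM in NanogKO:Esrrb, against 4.84 ± 0.739 CPM in NanogKO (SD, n = 3 each).

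The 9 Hippo pathway genes had 134 regions, of which 11 rose and 27 fell in NanogKO:Esrrb against NanogKO, 24 rose and 34 fell in NanogKO:Esrrb:Nanog against NanogKO, and 21 rose and 11 fell in NanogKO:Esrrb:Nanog against NanogKO:Esrrb. Of these regions 28.4%, 43.3% and 23.9% were called, where 37.0%, 49.3% and 24.6% of all regions were. Wwtr1, the gene of a TEAD coactivator, held 21.7, 25.0 and 23.1 CPM in NanogKO:Esrrb:Nanog, 14.3, 15.9 and 13.7 CPM in NanogKO:Esrrb, against 5.07, 4.74 and 5.82 CPM in NanogKO at chr3:57558712-57559176 within the gene. The groups did not overlap, and the log2 fold change was 2.16 ± 0.13 (adjusted p 4.7e-13) in NanogKO:Esrrb:Nanog and 1.49 ± 0.13 (adjusted p 8.2e-10) in NanogKO:Esrrb against NanogKO. Tead1, another TEAD factor, had a fall at chr7:112743494-112744002 within the gene, with 12.8, 14.1 and 12.1 CPM in NanogKO:Esrrb:Nanog, 10.6, 11.0 and 10.5 CPM in NanogKO:Esrrb, against 22.2, 24.0 and 21.7 CPM in NanogKO, a log2 change of -1.08 ± 0.12 (adjusted p 3.5e-08) in NanogKO:Esrrb against NanogKO. In the order in which the comparisons were given, the median log2 fold change was -0.17, -0.09 and 0.08 over the trophoblast stem cell regions, -0.06, 0.04 and 0.00 over the differentiated trophoblast regions and -0.11, -0.16 and 0.03 over the Hippo regions, beside -0.01 over all regions in each.

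Markers of the cells' own type moved with the groups as well. Of the 75 regions of the 5 ES cell genes, 39 rose and 5 fell in NanogKO:Esrrb against NanogKO and 41 rose and 6 fell in NanogKO:Esrrb:Nanog against NanogKO, with median log2 fold changes of 0.42 and 0.49. The shares called were 58.7% and 62.7%, beside 37.0% and 49.3% of all regions. The comparison of NanogKO:Esrrb:Nanog with NanogKO:Esrrb gave 11 rises and 6 falls, with a median of 0.03. There 22.7% of the list was called, close to the 24.6% of all regions (12.6% higher and 12.0% lower). Of the markers of other cell types, the primitive endoderm list had 7 and 10 of 57 regions higher and 9 and 15 lower in NanogKO:Esrrb and in NanogKO:Esrrb:Nanog, each against NanogKO, the mesoderm list 3 and 3 of 29 higher and 6 and 6 lower, and the ectoderm and neural list 7 and 18 of 49 higher and 13 and 10 lower. In these comparisons 28.1% and 43.9% of the primitive endoderm regions, 31.0% and 31.0% of the mesoderm regions and 40.8% and 57.1% of the ectoderm and neural regions were called. Summed CPM ran between 328 and 345 in NanogKO:Esrrb:Nanog, 303 and 334 in NanogKO:Esrrb, against 351 and 376 in NanogKO, for primitive endoderm. For mesoderm it was between 225 and 239, 212 and 216, and 217 and 224 CPM, and for ectoderm and neural genes between 367 and 386, 314 and 339, and 342 and 368 CPM, in the same group order. Their part in the changes at the trophoblast genes was not tested.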

How the data were processed

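The authors deposited 1 table of raw counts per region for all 9 ATAC-seq libraries, and 1 peak list per group with the peak caller's score. Per the submitters' processing notes, MACS2 2.2.0, bedtools 2.26.0, Bowtie2, cutadapt, deepTools 4.4.0, SAMtools 1.4.1 and bcl2fastq 2.19.1 were used, with mm10. The roles and settings of these tools, the counter, duplicate removal and any shift of the reads to the insertion site are not given in the sources used here, and counts depend on each. The lowest score in the deposited lists was 13. Peak names in each list come from 1 library, as given in the report.

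Library totals of 35.5e6 to 58.5e6 counts gave a median of 96 to 175 counts per region, which limits precision at the weakest regions. Counts were fitted with edgeR 4.0.16 (R 4.3.3; TMM factors, filterByExpr, quasi-likelihood test, 1 fit of 3 group means with 6 residual degrees of freedom), and p-values were adjusted by Benjamini-Hochberg over all 157439 tested regions, or over all 18799 tested genes for counts summed per gene. All comparisons used the same fit, so those with a shared group are not independent. A ± after a log2 fold change is a standard error, and an interval is a 95% one from the same fit. CPM values were used for display, with a prior count of 2 where logs were taken for the likeness of genes. Gene spans and distances come from RefSeq (GRCm38.p6), in which 85.1% of regions lay within 50 kb of a protein-coding gene; the files' coordinates are mm10.

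Alternatives were DESeq2 1.42.0, its size factors, library totals alone, factors within each chromosome, loess offsets, no filter, the 2 groups compared alone, other distances, leaving out each library, and the replicate number as a block. Deviations of same-numbered libraries correlated at 0.117 to 0.152 for NanogKO:Esrrb with NanogKO, 0.105 to 0.146 for NanogKO:Esrrb:Nanog with NanogKO:Esrrb, and 0.002 to 0.136 for NanogKO:Esrrb:Nanog with NanogKO, with other-numbered ones between -0.098 and 0.045. Same-numbered libraries were thus taken as paired in the first and second of these, from the data and not from the labels. The main fit did not use the replicate numbers. Its p-values are therefore unpaired, and the block was run as an alternative only. The fitting step was tested on simulated counts, for regions and for gene sums, and the other steps were not.

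The members and gene lists were chosen with earlier results of these data known. Regions named for each gene are the promoter region, the one of smallest p in each comparison and, at or above the median abundance (a log2 CPM of 1.56), the largest called change; those introduced as further regions were chosen after their values were seen. For other lists, the 2 called regions of smallest p per comparison, at most 1 per gene, were eligible. The series' design text counts 12 samples, of which 9 were analysed here.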

Additional observations from a re-analysis of the deposited data

How the results depend on the processing

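Between both groups with added Esrrb, the member counts leaned on the scaling and on single libraries. In NanogKO:Esrrb:Nanog against NanogKO:Esrrb, library totals alone gave 19 higher and 11 lower members, loess offsets 8 lower, a limit of 100 kb 8 lower, and dropping the nearest-gene condition 9 lower. Leaving out 1 library gave 18 to 40 higher and 3 to 12 lower. Within 10 kb of the genes, 15 regions were higher and 3 lower in that comparison. There 10 were higher and 16 lower in NanogKO:Esrrb against NanogKO, and 17 and 15 in NanogKO:Esrrb:Nanog against NanogKO. The regions at 10 to 50 kb, left out there, held 19 of the 29 rises in NanogKO:Esrrb against NanogKO. Leaving out 1 library gave 24 to 29 higher and 19 to 28 lower in NanogKO:Esrrb against NanogKO, and 34 to 44 and 21 to 27 in NanogKO:Esrrb:Nanog against NanogKO. With the replicate block, member counts were 29 and 29 in NanogKO:Esrrb against NanogKO, 42 and 28 in NanogKO:Esrrb:Nanog against NanogKO, and 36 and 7 in NanogKO:Esrrb:Nanog against NanogKO:Esrrb; beyond the calls given in the report, the block also called the Cdx2 promoter region lower in NanogKO:Esrrb:Nanog against NanogKO (-0.22), where the numbers were not taken to pair the libraries.

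Over the regions of the 3 other trophoblast lists, library totals alone gave 28 higher and 41 lower in NanogKO:Esrrb:Nanog against NanogKO:Esrrb. With that scaling 12765 of all regions were higher and 25391 lower, so that 33.5% of all calls were higher. For the lists in the same comparison, leaving out 1 library gave 28 to 56 higher (28 without NanogKO:Esrrb replicate 1 or 3) and 15 to 33 lower (15 and 17 without NanogKO:Esrrb:Nanog replicates 1 and 2). In NanogKO:Esrrb against NanogKO it gave 17 to 31 higher, the lowest without NanogKO replicate 1.

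For summed counts, the replicate block gave 2 higher member genes in NanogKO:Esrrb against NanogKO, and leaving out 1 library 1 to 3 higher and 0 to 1 lower. In NanogKO:Esrrb:Nanog against NanogKO, regions within 10 kb gave 3 higher and 2 lower, and library totals alone and the fits without 1 library at most 1 lower (0 to 1). In NanogKO:Esrrb:Nanog against NanogKO:Esrrb, leaving out regions within 1 kb of a gene end gave 5 higher, and leaving out 1 library 1 to 3. Within 10 kb, Elf5 was called at -0.32 and Ets2 at -0.22 in NanogKO:Esrrb:Nanog against NanogKO, the opposite sign to their sums over 50 kb (0.03 and 0.02, neither called). The cause of these shifts was not tested. Of 4437 values of single named regions under the alternatives, 4300 kept direction and call, 37 gained a call, 100 lost one and none reversed. Of 570 such values of gene sums, 531 kept both, 16 gained a call, 21 lost one and 2 reversed, those of Elf5 and Ets2 above.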

Other observations

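The other regions of the gene lists that had the smallest p also moved in both directions. Between NanogKO:Esrrb:Nanog and NanogKO:Esrrb, a region within Krt8, a keratin gene of trophectoderm, averaged 22.2 ± 3.26 CPM in NanogKO:Esrrb:Nanog, 12.5 ± 0.972 CPM in NanogKO:Esrrb and 9.12 ± 0.608 CPM in NanogKO (SD, n = 3 each). Its log2 change was 0.82 ± 0.13 (adjusted p 5e-05). A region within Tead3, another TEAD factor gene, averaged 5.30 ± 0.576, 2.02 ± 0.301 and 1.67 ± 0.140 CPM in the same group order, a log2 change of 1.39 ± 0.18 (adjusted p 7.9e-06).

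Nf2, an upstream regulator of the Hippo pathway, had regions that moved in opposite directions. At chr11:4803051-4803254 it averaged 8.30 ± 0.595 CPM in NanogKO:Esrrb:Nanog, 2.93 ± 0.670 CPM in NanogKO:Esrrb and 2.92 ± 0.187 CPM in NanogKO, and at chr11:4763639-4764073 3.28 ± 0.509, 5.0 ± 0.153 and 9.26 ± 0.352 CPM in that order (SD, n = 3 each). The first rose by 1.5 ± 0.17 on the log2 scale in NanogKO:Esrrb:Nanog against NanogKO:Esrrb (adjusted p 9.2e-07). The second fell by 1.49 ± 0.15 in NanogKO:Esrrb:Nanog against NanogKO (adjusted p 6.1e-09).

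Syna, a syncytin gene of labyrinth trophoblast, likewise had a rise at chr5:134579246-134579435, 2208 bp from its span, with a mean of 2.99 ± 0.224 CPM in NanogKO:Esrrb:Nanog, 2.45 ± 0.458 CPM in NanogKO:Esrrb and 0.739 ± 0.363 CPM in NanogKO. Within the gene, at chr5:134560172-134560762, it had 3.77 ± 0.375, 7.67 ± 0.982 and 10.6 ± 0.525 CPM in that order, a log2 change of -1.5 ± 0.15 in NanogKO:Esrrb:Nanog against NanogKO (adjusted p 2.8e-09).

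The regions of smallest p near markers of other cell types moved in both directions too. A region within Trp63, a factor of stratified epithelium, fell to 0.247 ± 0.128 CPM in NanogKO:Esrrb:Nanog and 0.531 ± 0.218 CPM in NanogKO:Esrrb, against 4.64 ± 1.08 CPM in NanogKO (SD, n = 3 each). Its log2 change was -4.18 ± 0.33 (adjusted p 5.4e-11) in NanogKO:Esrrb:Nanog and -3.10 ± 0.29 (adjusted p 3.2e-09) in NanogKO:Esrrb. Of the other ectoderm and neural genes, Sox1 had a nearby rise of 1.27 ± 0.14 in NanogKO:Esrrb:Nanog against NanogKO. Within Pax6, a region fell by 0.94 ± 0.14 in NanogKO:Esrrb against NanogKO. In NanogKO:Esrrb:Nanog against NanogKO:Esrrb, another Pax6 region rose by 1.31 ± 0.15 and another near Sox1 by 0.87 ± 0.16. A region 34760 bp from Kdr, a receptor gene of vascular mesoderm, rose by 2.59 ± 0.24 in NanogKO:Esrrb:Nanog and 2.35 ± 0.24 in NanogKO:Esrrb, each against NanogKO. It averaged 5.70 ± 1.89 CPM in NanogKO:Esrrb:Nanog, 4.76 ± 1.05 CPM in NanogKO:Esrrb and 0.929 ± 0.190 CPM in NanogKO. Near Hand2, the other mesoderm gene in this selection, a region 16310 bp from the span had a log2 change of -0.70 ± 0.12 (adjusted p 2.9e-05) in NanogKO:Esrrb against NanogKO, and one within the gene -0.74 ± 0.16 (adjusted p 0.00029) in NanogKO:Esrrb:Nanog against NanogKO. Of the primitive endoderm genes, Dab2, an endocytic adaptor gene, had a region within it that averaged 2.57 ± 0.446 CPM in NanogKO:Esrrb:Nanog, 3.71 ± 0.120 CPM in NanogKO:Esrrb and 10.5 ± 1.05 CPM in NanogKO, log2 changes of -2.02 ± 0.16 (adjusted p 7.6e-11) and -1.50 ± 0.15 (adjusted p 1.9e-08) against NanogKO. Near Pdgfra, the gene of the receptor the cells were sorted against, a region 11803 bp from the span averaged 11.4 ± 2.12, 6.67 ± 1.17 and 2.86 ± 0.209 CPM in that order, a rise of 2.00 ± 0.17 in NanogKO:Esrrb:Nanog against NanogKO (adjusted p 2e-10).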
